A study of Rattus norvegicus with 71 samples.

Results

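The genes described here were 7 of the 19 genes for GABA-A receptor subunits among the 17494 genes of the count table: the alpha subunit genes Gabra2, Gabra3, Gabra4 and Gabra5, the beta subunit genes Gabrb1 and Gabrb2, and the gamma subunit gene Gabrg1. They were picked by symbol with earlier results of these data known, so their number of calls is not that of an unselected set. In every comparison 7 of 7 passed the expression filter. Sprague-Dawley dams were given peptides in Freund's adjuvant, chosen to raise the maternal autism-related autoantibody (MARA-AB) pattern named by its antigens, and the brains of their wild type pups were taken at postnatal day (PND) 2. Saline control dams received adjuvant with saline, so adjuvant was common to all groups. From each of 71 pups (35 males, 36 females, 27 litters) RNA was sequenced from 1 coronal slice that held hippocampus with nearby cortical and subcortical tissue.

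The 24 controls came from 7 litters and the 47 exposed animals from 20. Batch 1 held 12 controls (3 litters) and 16 LDHA/B+CRMP1+STIP1 animals (4 litters). Batch 2 held 12 controls (4 litters), 9 LDHA/B+CRMP1+STIP1 animals (5 litters), 8 CRMP1+CRMP2 animals (4 litters), 6 CRMP1+GDA animals (3 litters) and 8 STIP1+NSE animals (4 litters). The batches were processed and sequenced separately, and 3 of the 4 patterns had no animals in batch 1. Exposure was given to the dam, so littermates are not independent, and p-values over animals, here and below, measure the spread between pups more than the spread between dams.

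GABA-A receptors are chloride channels built from several subunits around a pore, most often alpha, beta and gamma subunits together. GABA binds between alpha and beta subunits, and the choice of alpha and gamma subunit sets where the receptor sits and which drugs act on it. In newborn rodent neurons intracellular chloride is high and GABA can depolarize the cell, and the alpha2, alpha3 and alpha5 subunits are known to be prominent at this age.

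In rn7, the build of the deposited table, 4 of the 7 genes lie side by side on chromosome 14. Gabrb1 is at 36080391 to 36548940 on the minus strand, Gabra4 at 36590782 to 36665851, Gabra2 at 37097279 to 37228975 and Gabrg1 at 37396294 to 37467642, these 3 on the plus strand. The gaps between neighbours are 41.8, 431 and 167 kb, and 0 other genes of the table lie in them. Gabrb2 is on chromosome 10 (26938240 to 27150437, plus strand), Gabra5 on chromosome 1 (108268776 to 108380888, minus strand) and Gabra3 on chromosome X (150261607 to 150501566, minus strand). Gabrg3, another subunit gene, lies 22 kb from Gabra5.

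Promoter windows of 300 bases (250 before and 50 after the annotated start, RefSeq, build GRCr8) were at hand for 6 of the 7 genes, all but Gabra2. The windows of Gabra4 and Gabra5 are shown because these genes were called in the CRMP1+CRMP2 comparison. Those of Gabrb1 and Gabrb2 are shown because these genes were called in opposite directions between the batches of controls. These calls take littermates as independent. With litter as a random effect those of Gabra4, Gabra5 and Gabrb1 did not hold. Capitals mark the motifs searched on both strands. The GC box was searched as GGGCGG. The promoter element known as the CAAT box was searched as CCAAT. The TATA box was searched as TATAAA. Also in capitals is TGCGCATGCGC, the longest run of letters shared by the windows of Gabrb1 and Gabrb2.
Gabra4, chr14:36944497-36944796, plus strand: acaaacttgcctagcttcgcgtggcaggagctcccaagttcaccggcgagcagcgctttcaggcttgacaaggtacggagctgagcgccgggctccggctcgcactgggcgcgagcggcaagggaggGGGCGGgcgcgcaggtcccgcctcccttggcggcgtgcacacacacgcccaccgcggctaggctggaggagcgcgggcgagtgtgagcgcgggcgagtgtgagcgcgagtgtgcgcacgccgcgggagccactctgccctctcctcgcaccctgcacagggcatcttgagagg
Gabra5, chr1:117516557-117516856, minus strand: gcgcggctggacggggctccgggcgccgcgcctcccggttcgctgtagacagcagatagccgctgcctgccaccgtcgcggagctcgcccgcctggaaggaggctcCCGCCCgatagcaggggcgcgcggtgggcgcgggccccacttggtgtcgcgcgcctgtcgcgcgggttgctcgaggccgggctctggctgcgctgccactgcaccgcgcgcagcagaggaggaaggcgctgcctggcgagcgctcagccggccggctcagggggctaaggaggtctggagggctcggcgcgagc
Gabrb1, chr14:36902844-36903143, minus strand: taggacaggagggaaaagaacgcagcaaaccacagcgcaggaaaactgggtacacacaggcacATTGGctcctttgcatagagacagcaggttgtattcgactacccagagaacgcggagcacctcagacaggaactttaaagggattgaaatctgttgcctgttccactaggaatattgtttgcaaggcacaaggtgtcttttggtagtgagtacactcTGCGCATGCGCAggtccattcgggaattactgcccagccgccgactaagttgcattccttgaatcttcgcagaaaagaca
Gabrb2, chr10:27439543-27439842, plus strand: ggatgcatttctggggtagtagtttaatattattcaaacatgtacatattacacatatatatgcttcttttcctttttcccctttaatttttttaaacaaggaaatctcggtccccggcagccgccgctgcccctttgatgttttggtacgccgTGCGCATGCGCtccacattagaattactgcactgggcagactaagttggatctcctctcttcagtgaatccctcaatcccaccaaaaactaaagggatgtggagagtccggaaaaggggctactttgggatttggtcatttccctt
The Gabra4 and Gabra5 windows were 70.7% and 76.3% G or C and held 35 and 42 CG dinucleotides, against medians of 52.3% and 7 over 27457 rat promoters. Each held 1 GC box, found in 34.7% of those promoters, and it read on the opposite strand in Gabra5. The Gabrb1 and Gabrb2 windows were 49.3% and 44% G or C. The run they share has 11 letters, was picked from these windows, and is found in 176 of 27457 promoters (0.641%). It begins 30 bases before the start in Gabrb1, where its copies on both strands overlap, and 96 bases before it in Gabrb2, and it holds the core letters of the motif of the transcription factor NRF1. Gabrb1 also held 1 CAAT box (37.7% of promoters), on the opposite strand. Of the windows not printed, Gabrg1 held 2 CAAT boxes, and Gabra3 held 1 CAAT box and 1 TATA box (14.3% of promoters), all on the opposite strand. The TATA letters of Gabra3 begin 194 bases before the start. These matches describe letters and say nothing of binding in these slices.

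Levels are given as RPKM, counts per kilobase of gene scaled to the total of the library, computed from the deposited counts and gene lengths. Gabra5, the alpha subunit linked to hippocampal and extrasynaptic receptors, was the highest of the 7 at 57.7 ± 7.18 RPKM (SD, n = 71). Gabra2 stood at 47.8 ± 11.4, Gabra3 at 33.3 ± 3.39, Gabrb2 at 32.9 ± 6.34, Gabrg1 at 20.8 ± 5.67, Gabra4 at 14.1 ± 2.56 and Gabrb1 at 6.02 ± 1.75 RPKM. Gabra3 was higher than Gabrb2 in 40 of 71 samples, but their order differed by batch. In batch 1 controls the median litter mean was 35.3 RPKM for Gabra3 and 37.2 for Gabrb2. In batch 2 controls it was 31.8 and 28.4 RPKM. Gabra5 exceeded Gabra2 in 60 of 71 samples and Gabra4 exceeded Gabrb1 in 71 of 71.

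Against a subunit gene outside the 7, Gabrb1 and Gabrg3 (5.81 RPKM) did not differ beyond their spread, Gabrb1 being the higher in 42 of 71. The 7 genes together made up 54.3% ± 1.78 (SD, n = 71) of the RPKM summed over the 19 subunit genes, from 48.7% to 58.1%. The order rests on the gene lengths in the table. Those of Gabra2, Gabrb1, Gabrb2 and Gabrg1 are exact multiples of 3, as are 42.6% of all gene lengths. Whether any of the lengths hold coding sequence only was not tested.

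**Figure D1:**
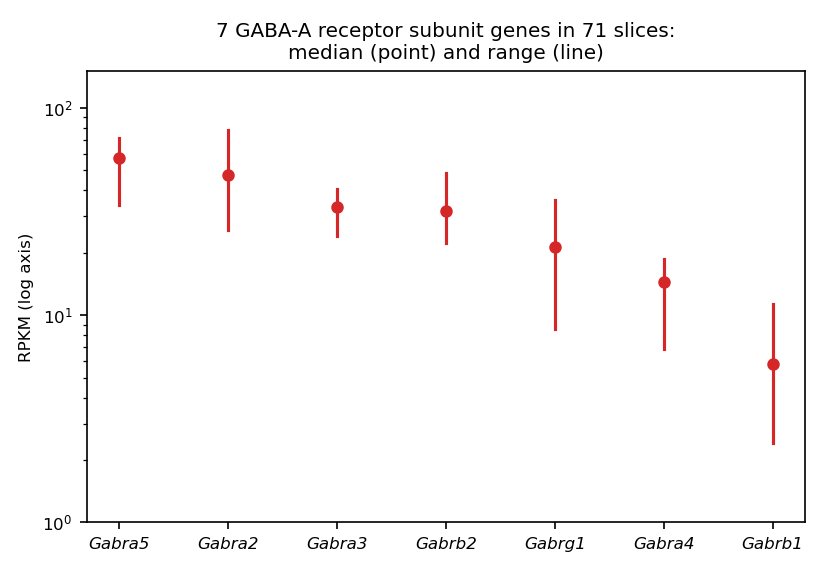
RPKM on a log axis for the 7 genes in 71 slices, in order of their mean, with points at the median and lines from the lowest to the highest sample. Gabra5 (mean 57.7 RPKM) and Gabra2 (47.8 RPKM) come first, the lines of Gabra3 and Gabrb2 overlap, and Gabrb1 (6.02 RPKM) is the lowest.

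Spread between samples was unequal. After the mean of each combination of pattern and batch was subtracted, the SD of log2 CPM (counts scaled to the library total) was 0.41 for Gabrb1, 0.34 for Gabrg1, 0.29 for Gabra2 and Gabra4, 0.19 for Gabrb2, 0.18 for Gabra5 and 0.15 for Gabra3. Litters accounted for 53.3% of that spread in Gabra2 and 50.6% in Gabrb1, and for 38.5% to 41.7% in the other 5 genes. Over 12477 genes the median was 46.9%, and 31.25% would be found with no difference between litters, so the 7 genes were not set apart from the rest by litter.

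Slices differed in composition. Neuron markers (6 genes) summed to 6845 to 8558 CPM in all 71 samples and hippocampus markers (7 genes) to 66.7 to 144 CPM, and no listed marker of either set was at 0 in every sample. In 13 of 71 libraries, all of batch 2 (1 control and 12 exposed), Tph1 or Hoxb7 exceeded 1 CPM, genes of pineal and of caudal tissue. Hox genes (8 measured) summed to as much as 61.9 CPM in batch 1 controls too, with Hoxb7 under 1 CPM there. In bulk tissue fewer cells of a type and less RNA per cell cannot be told apart.

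The general comparison asked whether the 47 exposed animals differed from the 24 controls whatever the pattern. By the quasi-likelihood test of edgeR (Benjamini-Hochberg adjustment), 0 of the 7 genes were called at FDR < 0.1, where 0.0321% of 12477 genes were, and DESeq2 also called 0. At an unadjusted p under 0.05, 1 of the 7 was found, Gabra5, where 10.3% of all genes were. Gabra5 ran from 45.4 to 69.9 RPKM in controls and from 34.2 to 71.4 in exposed animals, with 32 of 47 exposed animals below the control median but only 3 below the lowest control. Its log2 fold change was -0.12 ± 0.04 (SE; p = 0.00694, adjusted p = 0.342). The other fold changes ran from -0.12 for Gabra4 to 0.05 for Gabrb2, 6 of the 7 being below 0, as were 48.2% of all genes.

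The CRMP1+CRMP2 comparison set 8 animals, all of batch 2, against the 24 controls. Here 2 alpha subunit genes fell, Gabra5 and Gabra4, and the other 5 did not pass the test. This was a comparison in which 11.4% of 12691 genes were called and 6.56% were called lower, and the median log2 fold change of the 7 genes was -0.10 against 0.01 over all genes. The 7 were chosen with earlier results known, and 0 of the 9 other subunit genes tested were called.

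Gabra5 ranged from 34.2 to 66.1 RPKM in CRMP1+CRMP2 animals, with a median of 52.5. Controls of the same batch ranged from 49.4 to 69.9 with a median of 65.2, and those of batch 1 from 45.4 to 67.4 with a median of 56.1. The groups overlapped: 7 of the 8 exposed animals lay below the median of batch 2 controls and 2 lay below all 12 of them. Litter means of the pattern were 43.8 to 58.8 RPKM and those of batch 2 controls 61.7 to 66.4, over 4 litters each. How many of all genes separate these litters was not counted. Batch 2 LDHA/B+CRMP1+STIP1 litter means, 44.1 to 64.2 RPKM, overlapped with both. The 3 batch 1 control litter means, 53.1 to 61.2 RPKM, overlapped with those of CRMP1+CRMP2. The log2 fold change was -0.27 ± 0.07 (SE; edgeR, adjusted p = 0.0266). With batch 2 alone it was -0.29 (adjusted p = 0.118), and with batch and sex as covariates -0.28 (adjusted p = 0.0842).

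Gabra4, whose subunit is known from extrasynaptic receptors of thalamus and dentate gyrus, ranged from 6.83 to 17.6 RPKM in CRMP1+CRMP2 animals, with a median of 13.6. Batch 2 controls ranged from 7.88 to 18.6 with a median of 15.5, and batch 1 controls from 11 to 17.6 with a median of 14.9. 7 of 8 exposed animals lay below the median of batch 2 controls, but only 1 lay below their lowest. The log2 fold change was -0.34 ± 0.12 (SE; edgeR, adjusted p = 0.0875), and within batch 2 it was -0.28 (adjusted p = 0.294).

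Gabrg1, a gamma subunit gene expressed in relatively few brain areas, had a log2 fold change of -0.22 ± 0.09 (adjusted p = 0.147). Those of the other genes lay between -0.10 for Gabra3 and 0.09 for Gabrb2, with adjusted p of 0.283 or more. Leaving out litter 9_6, of 2 males, took Gabra5 to -0.19 (adjusted p = 0.291) and Gabra4 to -0.23 (adjusted p = 0.550), and 0 of the 7 genes were then called, with 41 of all genes in place of 1445. That litter held the animal lowest in both genes, at 34.2 RPKM of Gabra5 and 6.83 RPKM of Gabra4. Without that 1 animal (chosen after the data were seen) Gabra5 had -0.21 (adjusted p = 0.126) and Gabra4 -0.25 (adjusted p = 0.342), with 0 of the 7 and 205 of all genes called. With the litter as a random effect, 0 of the 7 genes were called (Gabra5 -0.29, adjusted p = 0.156).

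**Figure D2:**
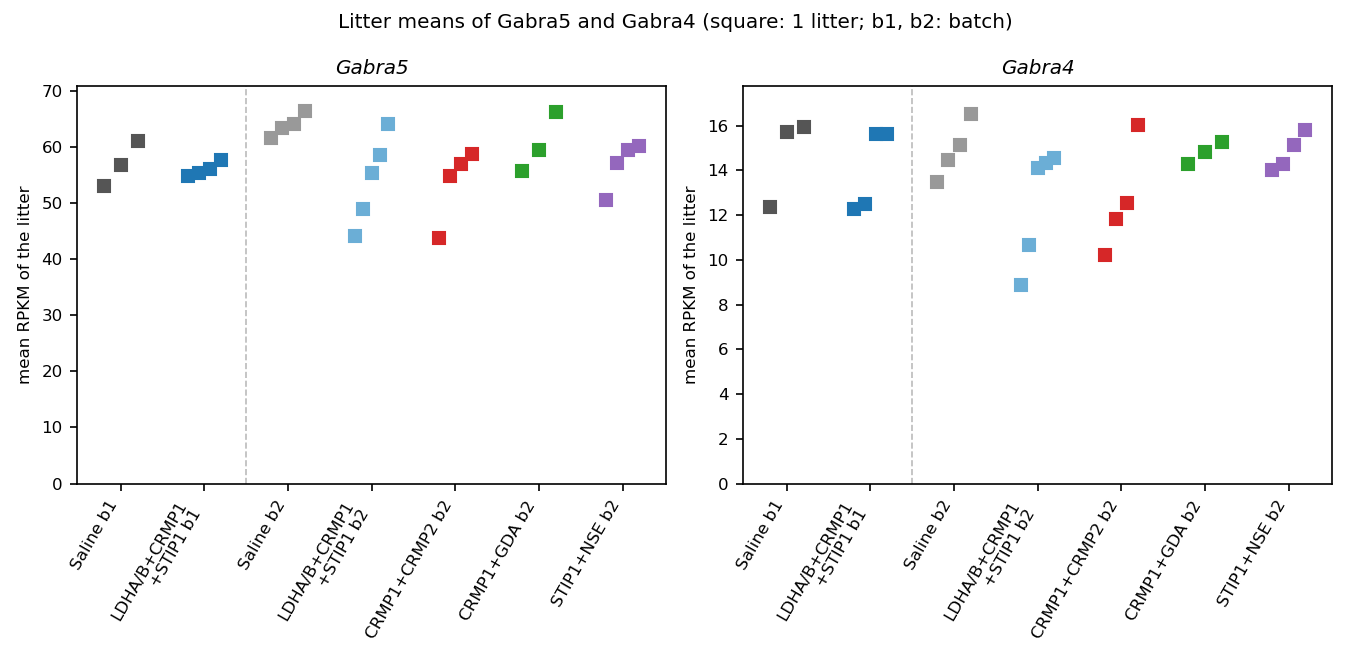
Mean RPKM of each litter for Gabra5 and Gabra4 by pattern and batch, 1 square per litter, with the axes from 0. The 4 CRMP1+CRMP2 litters and the 4 STIP1+NSE litters lie below the 4 batch 2 control litters for Gabra5. Those of LDHA/B+CRMP1+STIP1 in batch 2 and of CRMP1+GDA overlap with these controls, and for Gabra4 the litters overlap. For Gabra5 the batch 1 control litters (53.1 to 61.2 RPKM) overlap with the CRMP1+CRMP2 and the STIP1+NSE litters. How many of all genes separate litters in this way was not counted.

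Markers of tissues and cell types moved in the same comparison. Choroid plexus markers (6 genes) summed to 197 to 3293 CPM in CRMP1+CRMP2 animals, against 135 to 2871 in batch 2 controls and 3.67 to 109 in batch 1 controls, and 6 of 6 were called higher. Pineal markers reached 229 CPM in the highest of the 8 animals and 6.12 in the highest batch 2 control, with 4 of 4 called higher. Of the cortical projection neuron markers 2 of 7 were called higher. Called lower were 3 of 7 interneuron, 2 of 6 neuron, 2 of 5 oligodendrocyte lineage, 1 of 8 hypothalamus and 1 of 6 radial glia and astrocyte markers. Without the libraries over 1 CPM of Tph1 or Hoxb7 (3 of the 8 animals and 1 control), Gabra5 had a log2 fold change of -0.29 (adjusted p = 0.0872) and Gabra4 of -0.28 (adjusted p = 0.276). With thalamus and cortical projection neuron marker scores as further covariates, Gabra5 had -0.18 (adjusted p = 0.302) and Gabra4 -0.15 (adjusted p = 0.568). The part of slice composition in the main values was not tested beyond these fits.

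The LDHA/B+CRMP1+STIP1 comparison, with 25 animals of both batches against 24 controls, called 0 of the 7 genes by edgeR and by DESeq2, where edgeR called 0.0157% of 12700 genes. Gabra5 alone had an unadjusted p under 0.05 (log2 fold change -0.10 ± 0.04, SE; p = 0.0300, adjusted p = 0.635), as did 7.17% of all genes. In batch 1 its range in exposed animals, 51.3 to 61.8 RPKM, lay inside that of controls. In batch 2 exposed animals ranged from 44.1 to 68.4 with a median of 51.4 RPKM, 7 of 9 below the control median of 65.2. The difference of the batch 2 and batch 1 effects for Gabra5 was -0.19 ± 0.09 on the log2 scale (p = 0.0324, adjusted p = 1.00), and 0 of the 7 genes were called for it by edgeR and DESeq2, against 0.11% of all genes (3.05% at an unadjusted p under 0.05, with Gabra5 alone of the 7). Gabra4 was below the batch 2 control median in 9 of 9 batch 2 animals, yet inside the control range in 9 of 9, and Gabrg1 was below that median in 9 of 9.

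The CRMP1+GDA comparison, with 6 animals against 24 controls, called 0 of the 7 genes and 0% of 12641 genes by edgeR, and 0 of the 7 by DESeq2. At an unadjusted p under 0.05 it also gave 0 of the 7, where 3.65% of all genes passed. All 7 log2 fold changes were below 0 (49.2% of all genes were), from -0.15 ± 0.18 for Gabrb1 to -0.04 ± 0.11 for Gabra2, each with an interval that holds 0. Gabra5 ranged from 47.6 to 71.4 RPKM with a median of 61.5, 4 of 6 animals lying below the median of batch 2 controls.

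The STIP1+NSE comparison, with 8 animals against 24 controls, called 0 of the 7 genes by edgeR and DESeq2, and edgeR called 0.0474% of 12660 genes. Gabra5 had an unadjusted p of 0.00412 (log2 fold change -0.19 ± 0.06, SE; adjusted p = 1.00), where 3.19% of all genes had one under 0.05. Its values ran from 45.1 to 62.7 RPKM with a median of 57.2, and 8 of 8 animals lay below the median of batch 2 controls while 1 lay below their lowest. Litter means were 50.6 to 60.2 RPKM, below the 4 control litter means of batch 2, and how many of all genes separate these litters was not counted. The batch 1 control litter means, 53.1 to 61.2 RPKM, overlapped with those of STIP1+NSE. Without the libraries over 1 CPM of Tph1 or Hoxb7 (3 of the 8 animals and 1 control) the log2 fold change was -0.11 (adjusted p = 1.00). The other 6 genes had fold changes from -0.11 for Gabrg1 to 0.01 for Gabra3. The 4 patterns share the 24 controls, so their values for Gabra5 are not independent of each other.

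**Figure D3:**
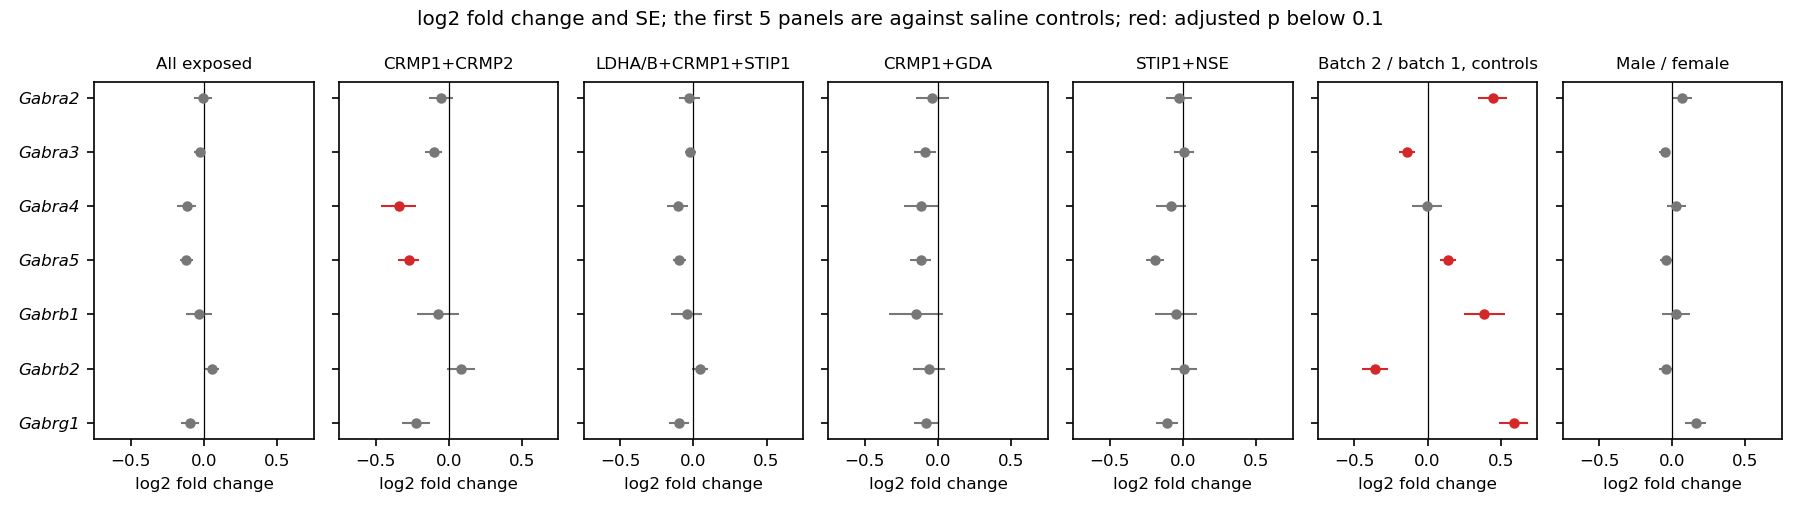
Log2 fold change with its SE for the 7 genes in 7 comparisons, red where edgeR's adjusted p was below 0.1. In the 5 comparisons with saline controls only Gabra4 and Gabra5 under CRMP1+CRMP2 are red, and in the batch comparison 6 genes are.

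More of the 7 genes passed the test between batches than in any exposure comparison. Between the 12 batch 2 and 12 batch 1 controls, 6 of the 7 genes passed the quasi-likelihood test of edgeR (Benjamini-Hochberg adjustment), in a comparison in which 41.5% of 12565 genes did (21.3% higher and 20.2% lower). Gabrg1, Gabra2, Gabrb1 and Gabra5 rose in batch 2, Gabrb2 and Gabra3 fell, and Gabra4 had -0.01 ± 0.10 (adjusted p = 0.975). The median log2 fold change of the 7 genes was 0.14, and that of all genes 0.002. The 7 were chosen with earlier results known, and of the 9 other subunit genes tested 2 were called. This fit takes littermates as independent. With litter as a random effect 3 of the 7 were called, Gabrg1, Gabra2 and Gabrb2, while Gabra3 (adjusted p = 0.208), Gabra5 (0.255) and Gabrb1 (0.266) were not. With counts summed per litter 2 were called, Gabrg1 and Gabrb2, and Gabra2 had an adjusted p of 0.132.

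Gabrg1 ranged from 12.2 to 21.9 RPKM with a median of 16.1 in batch 1 controls, and from 16.1 to 36 with a median of 25.8 in batch 2 controls. The ranges overlapped in 3 of the 12 batch 2 controls, and the other 9 lay above every batch 1 control. The log2 fold change was 0.59 ± 0.10 (SE; adjusted p = 4.89e-05).

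Gabra2, an alpha subunit gene prominent in newborn forebrain, ranged from 27.6 to 50.4 RPKM with a median of 38.6 in batch 1 controls, and from 39.6 to 64.5 with a median of 56.4 in batch 2 controls. 9 of 12 batch 2 controls lay above all of batch 1. The log2 fold change was 0.45 ± 0.10 (SE; adjusted p = 0.00104).

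Gabrb1 ranged from 3.34 to 7.11 RPKM with a median of 5.14 in batch 1 controls and from 4.65 to 9.17 with a median of 6.91 in batch 2 controls, 6 of 12 above all of batch 1 (0.39 ± 0.14, adjusted p = 0.0358). Gabra5 rose by 0.14 ± 0.05 (adjusted p = 0.0507), with 4 of 12 batch 2 controls above all of batch 1.

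Gabrb2, a beta subunit gene, went the other way. It ranged from 26 to 48.6 RPKM with a median of 36.8 in batch 1 controls, and from 22.2 to 33 with a median of 29.4 in batch 2 controls, 12 of 12 below the batch 1 median and 3 below the lowest. The log2 fold change was -0.36 ± 0.09 (SE; adjusted p = 0.00252). Over all groups 42 of 43 batch 2 animals were below the median of the 28 batch 1 animals. Gabra3 changed by -0.14 ± 0.05 (adjusted p = 0.0446), with medians of 34.4 and 33 RPKM and 5 of 12 batch 2 controls below the lowest of batch 1.

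**Figure D4:**
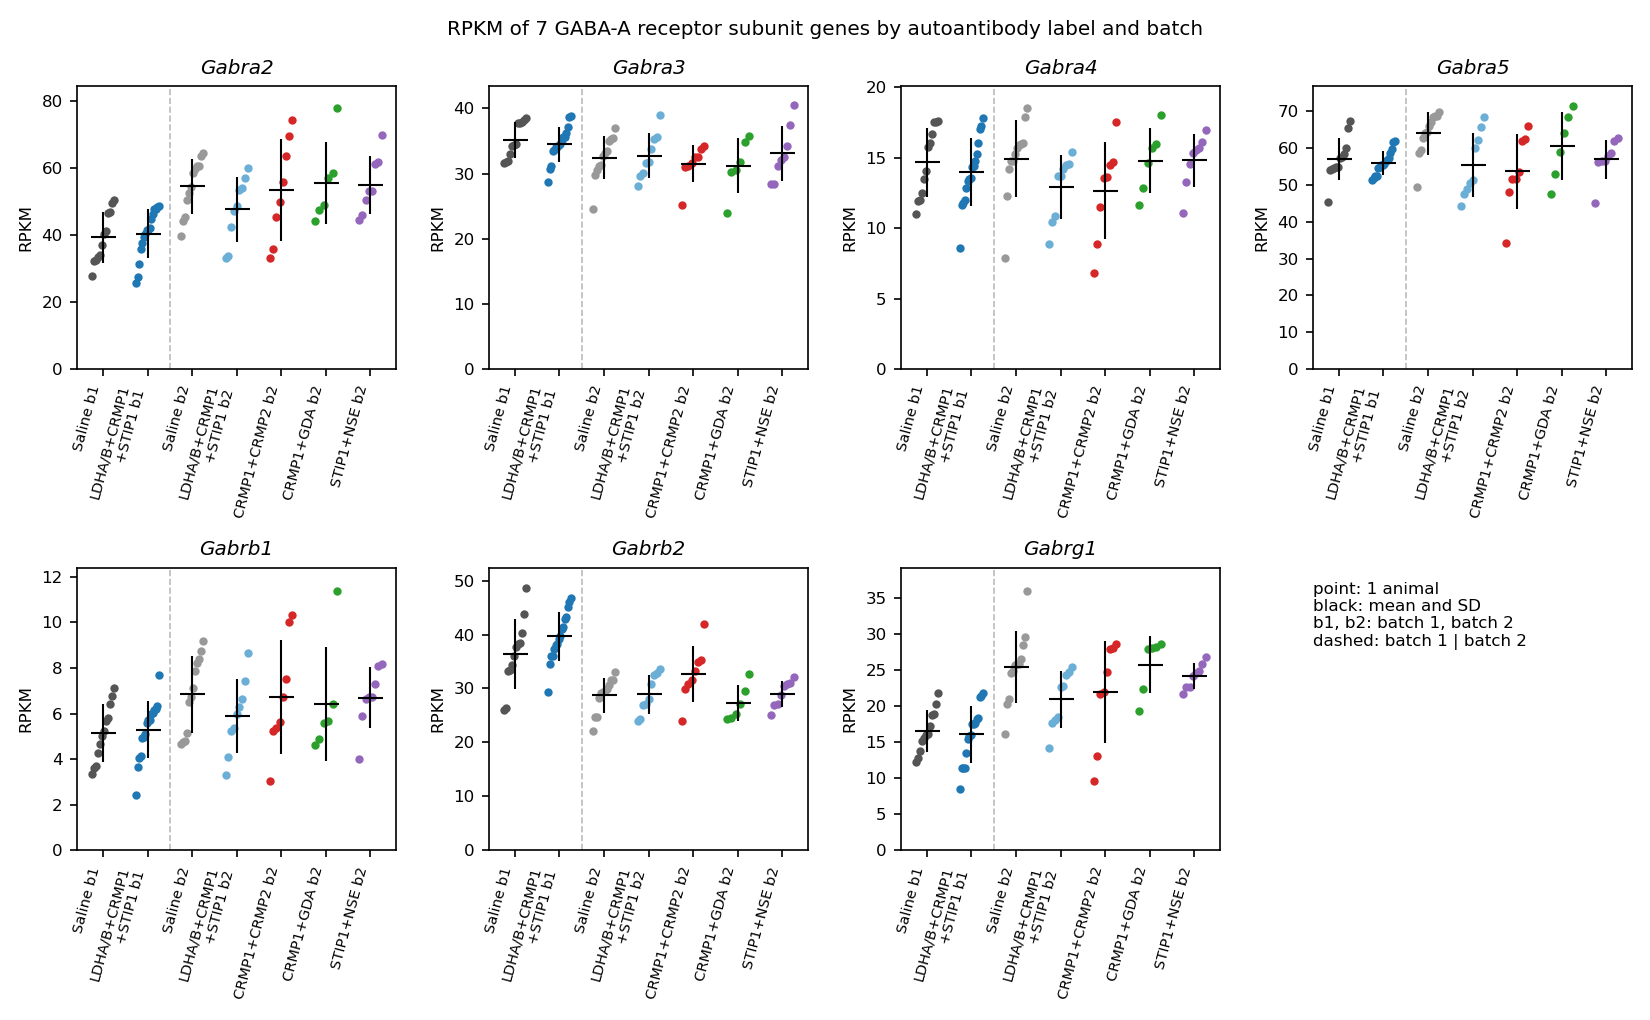
RPKM of each of the 7 genes by pattern and batch, 1 point per animal with mean and SD, axes from 0. Gabra2 and Gabrg1 are higher and Gabrb2 is lower on the batch 2 side of the dashed line, and the Gabra5 points of batch 2 controls have a median of 65.2 RPKM.

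The LDHA/B+CRMP1+STIP1 animals, which share no sample with the controls, gave a second reading of batch (9 against 16 animals, sex as a covariate, chosen after the data were seen). Gabrg1 rose by 0.39 ± 0.11 (adjusted p = 0.00902) and Gabrb2 fell by 0.49 ± 0.07 on the log2 scale (adjusted p = 1.69e-05), where 41.3% of genes were called. The other 5 genes did not pass: Gabra2 had 0.22 ± 0.11 (adjusted p = 0.124), Gabrb1 0.12, Gabra3 -0.11, Gabra4 -0.14 and Gabra5 -0.05. The value of Gabra5 in the LDHA/B+CRMP1+STIP1 animals had an SE of 0.07 (adjusted p = 0.567), so its sign is not settled. Its difference from the value in controls, given above, was not called.

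The composition of the slices differed between the batches. Thalamus markers (8 genes) summed to 147 to 237 CPM in batch 1 controls and 432 to 1136 in batch 2 controls, with no overlap. Cortical projection neuron markers (7 measured) summed to 1307 to 2250 and 881 to 1367 CPM, and striatum markers (8 genes) to 259 to 779 and 145 to 282 CPM. Choroid plexus markers (6 genes) summed to 3.67 to 109 CPM in batch 1 and 135 to 2871 in batch 2, again with no overlap, and hypothalamus markers (9 genes) to 3.77 to 41.2 and 6.23 to 85.8 CPM. Interneuron markers (7 measured) summed to 447 to 760 and 318 to 513 CPM. Of the markers tested, 6 of 6 for choroid plexus, 6 of 8 for hypothalamus and 7 of 8 for thalamus were called higher in batch 2. Called lower were 6 of 7 for interneurons, 6 of 7 for cortical projection neurons, 6 of 8 for striatum and 1 of 8 for thalamus. The part of the choroid plexus, hypothalamus, interneuron and striatum markers in the values of the 7 genes was not tested. With the thalamus and cortical marker scores as covariates, 1837 of 12565 genes were called, against 5218 without them. Among the 7 genes 2 were called, Gabrb2 (-1.04, adjusted p = 0.0412) and Gabra2, whose sign turned (-0.73, adjusted p = 0.0945). Gabrg1 then had 0.13 (adjusted p = 0.792) and Gabrb1 -1.17 (adjusted p = 0.109), with SE of 0.26 and 0.46. The thalamus sums of the batches do not overlap, so batch and slice level cannot be told apart in the controls.

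Leaving out single control litters kept Gabrg1, Gabra2 and Gabrb2 called in 7 of 7 fits, and Gabra3, Gabra5 and Gabrb1 in 4 of 7 each. Gabra3 lost its call without litter 9_10 (adjusted p = 0.268), 9_15 (0.116) or RNA4 (0.119). Gabra5 lost it without 9_25 (0.258), IgG1 (0.113) or RNA4 (0.269), and Gabrb1 without 9_10 (0.290), 9_25 (0.367) or IgG1 (0.104).

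Sex was compared over all 71 animals within pattern and batch. 0 of the 7 genes were called by edgeR and by DESeq2, where edgeR called 0.0641% of 12477 genes. Gabrg1 had 0.16 ± 0.07 for males against females (p = 0.0274, adjusted p = 0.991), the only one of the 7 with an unadjusted p under 0.05, as had 4.66% of all genes. Fold changes of the other 6 lay between -0.05 for Gabra3, which is on chromosome X, and 0.07 for Gabra2.

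The 7 genes varied together in part. Over 71 samples, with the mean of each combination of pattern and batch subtracted from log2 CPM, 18 of the 21 pairs had a positive Pearson r. The samples share litters and slice composition, so r is a description. How many pairs among all genes have a positive r was not counted. The 6 pairs within the chromosome 14 cluster had a median r of 0.62, from 0.37 to 0.79, and the other 15 pairs had a median of 0.33, from -0.25 to 0.71.

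Gabra2 and Gabrb1 were the most alike pair, with r = 0.79 and Spearman's rho = 0.74, 0.65 within batch 1, 0.87 within batch 2 and 0.84 over 27 litter means. They are not adjacent: Gabra4 lies between them, and its r with Gabrb1, its nearest neighbour at 41.8 kb, was 0.37, the lowest of the 6. Gabra4 was most like Gabrg1 (r = 0.71, rho = 0.62) and Gabra5 (r = 0.71, rho = 0.60), the latter on another chromosome. Gabra4 and Gabra5 had r = 0.45 within batch 1 and 0.80 within batch 2. Gabrb2 stood apart, with r of -0.25 with Gabra5, -0.15 with Gabra4 and -0.10 with Gabrg1, but 0.43 with Gabrb1 and 0.34 with Gabra2.

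The same values were set against their mean over the genes of each marker list that passed the expression filter. Gabra2 followed the hippocampus (r = 0.78, rho = 0.75) and thalamus markers (r = 0.71, rho = 0.71) most closely, and Gabrb1 did so at 0.60 and 0.55. Gabrg1 and Gabra4 ran against the cortical projection neuron markers (r = -0.76 and -0.73) and with the radial glia and astrocyte markers (0.69 and 0.70), as did Gabra5 (-0.65 and 0.61). For Gabra5 these were -0.19 and 0.19 within batch 1 and -0.79 and 0.74 within batch 2. Gabrb2 had its highest r with neuron markers, 0.48 (0.74 within batch 1 and 0.28 within batch 2). With interneuron markers it had -0.43 (-0.22 and -0.59). The r of Gabra3 that was largest in size among the 14 lists was 0.42, with hypothalamus markers (-0.0043 within batch 1 and 0.58 within batch 2).

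**Figure D5:**
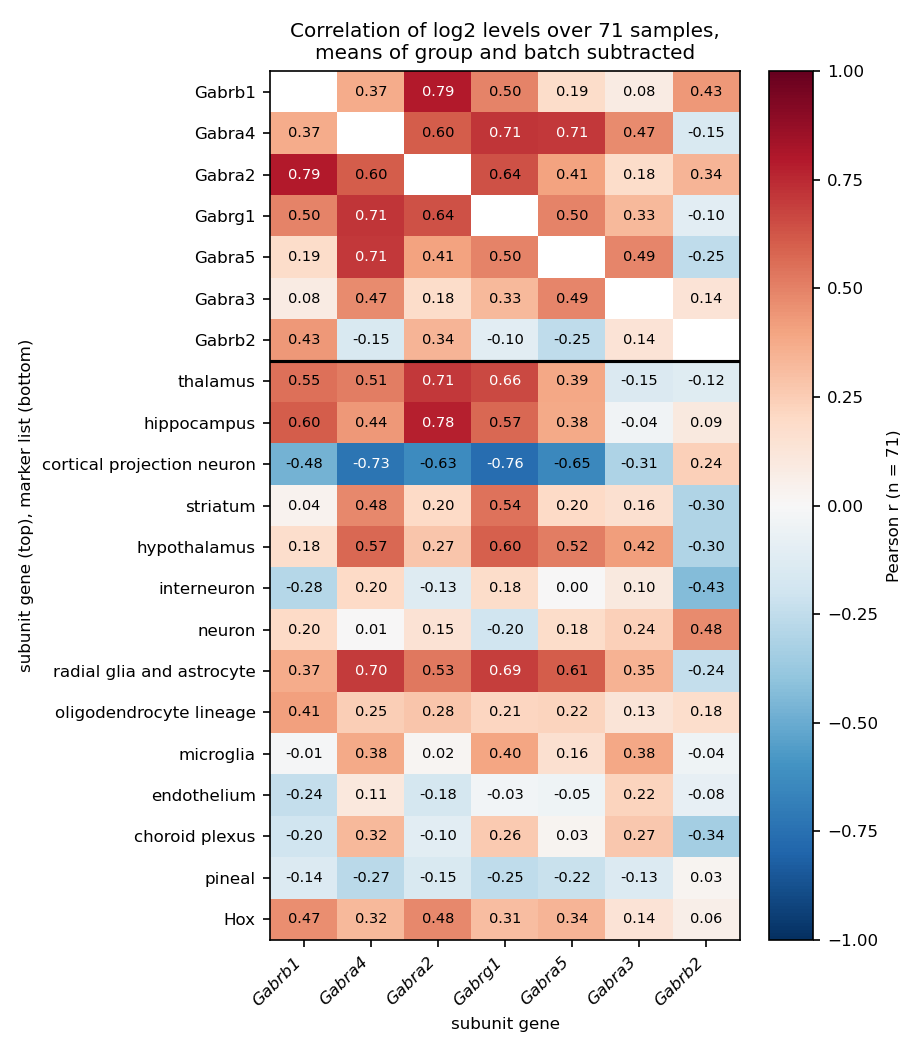
Pearson r over 71 samples of log2 levels, with the means of pattern and batch subtracted. The top 7 rows are between the 7 genes. The lower rows are between them and the mean of these levels over each of 14 marker lists. Gabra2 with Gabrb1 (0.79) and Gabra2 with hippocampus markers (0.78) are the highest values, and the cortical projection neuron row is negative for 6 of the 7 genes.

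The genes most like each of the 7, by Pearson r over the 71 samples among 12477 genes, were these. For Gabra2 they were Ptprg (0.91), Sema5a (0.89) and Mgat5 (0.86). For Gabra3 they were Fgf12 (0.72), Usp22 (0.68) and Ppp2r2c (0.68), the loosest of the 7 sets. For Gabra4 they were Paqr8, Tril and Ddah1 (0.81 each). Gabra5 came with Ncald (0.85), Olfm1 (0.81) and Rtn3 (0.81), Gabrb1 with Peg3 (0.85), Magi1 (0.83) and Pgap1 (0.83), Gabrb2 with Ncam1 (0.86), Syn3 (0.85) and Tulp4 (0.84), and Gabrg1 with Brinp3, Zcchc12 and Syt17 (0.84 each). Among the 12476 other genes, Gabra2 ranked 16th for Gabrb1 and Gabrb1 46th for Gabra2. The other pairs of the chromosome 14 cluster ranked from 57th (Gabrg1 for Gabra4) to 2521st (Gabra4 for Gabrb1).

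Other genes of GABA and glycine signalling were counted in the same fits. For CRMP1+CRMP2 these calls take littermates as independent, and 11.4% of all genes were called (6.56% lower). That share is 1445 genes, and the number was 8 with litter as a random effect, 0 with counts summed per litter and 41 without litter 9_6. In the CRMP1+CRMP2 comparison 0 of 9 other GABA-A subunit genes were called by edgeR (1 at an unadjusted p under 0.05). Of 19 genes for clustering and trafficking of the receptor, 1 rose and 4 fell. Mdga1, a suppressor of inhibitory synapse formation, rose by 0.39 ± 0.10 (adjusted p = 0.0273). Gabarapl1, a homologue of the GABA-A receptor-associated protein, fell by 0.18 ± 0.05 (adjusted p = 0.0310), Insyn1, an inhibitory synaptic protein, by 0.19 ± 0.05 (adjusted p = 0.0366) and Clptm1, which limits forward traffic of the receptor, by 0.12 ± 0.03 on the log2 scale (adjusted p = 0.0426).

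Of 8 genes for GABA synthesis, transport and breakdown, only Slc32a1, the vesicular GABA transporter, was called in that comparison (-0.54 ± 0.18, adjusted p = 0.0742). Of 5 genes of chloride transport Slc12a2, the importer NKCC1, was called (0.31 ± 0.06, adjusted p = 0.00843), a gene that choroid plexus also expresses. Of 4 GABA-B genes tested Gabbr1 (-0.14 ± 0.05, adjusted p = 0.0671) and Kctd8 (-0.59 ± 0.12, adjusted p = 0.00816) were called lower, and of 4 glycine receptor genes Glra2 (-0.23 ± 0.06, adjusted p = 0.0345) and Glrb (-0.21 ± 0.06, adjusted p = 0.0438). In the general comparison, in the other 3 patterns, for sex and for the difference of effects between batches, edgeR called 0 genes of these 6 lists, and 0 to 2 genes of a list had an unadjusted p under 0.05 (DESeq2 was not counted for these lists).

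Between batches in the controls, where 21.3% of all genes were called higher and 20.2% lower, 2 of 9 other subunit genes rose, among them Gabrq (0.55 ± 0.22, adjusted p = 0.0493). Of the clustering genes 3 rose and 8 fell, with Hap1 at 1.48 ± 0.32 (adjusted p = 0.000929). Slc12a5, the chloride exporter KCC2 whose rise ends the depolarizing phase of GABA, had 0.75 ± 0.13 (adjusted p = 0.00012), Slc12a2 0.26 ± 0.05 (adjusted p = 0.000205) and Stk39, a kinase that regulates both, 0.35 ± 0.07 (adjusted p = 0.000244). Of 4 GABA-B genes 3 rose, among them Gabbr2 (0.30 ± 0.06, adjusted p = 0.000165), and of 4 glycine receptor genes 3 rose, among them Glra3 (1.31 ± 0.25, adjusted p = 0.000201). Slc6a11, the GABA transporter GAT3, rose (0.35 ± 0.08, adjusted p = 0.000931) and Aldh5a1, an enzyme of GABA breakdown, fell by 0.30 ± 0.09 on the log2 scale (adjusted p = 0.0103). These calls too take littermates as independent: over all genes 5218 were called, against 2813 with litter as a random effect and 1968 with counts summed per litter.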

How the data were processed

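RNA from 71 slices, 1 per pup, was sequenced as poly-A libraries. Per the submitters' processing notes and the study's methods, the authors aligned reads to rn7 with STAR (2.5.4b) and counted them with featureCounts, and they deposited raw counts per gene with the gene length in bases as an other value. Whether reads of several places or strand were counted is not given in the sources used here. Of counts from 1 to 9, 74.5% were even, so halved counts were tried. Libraries held 24880182 to 36234952 counts, and 0 columns lacked a condition. Pattern, dam and sex come from the labels and batch from the title series, and replicate numbers were given in accession order.

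Differential expression was computed with edgeR 4.0.16 in R 4.3.3 (TMM, robust quasi-likelihood fit, Benjamini-Hochberg over all genes tested, FDR < 0.1), and every adjusted p is from it unless another tool is named. Genes had at least 1 CPM in at least 8 samples (general and sex comparison) or over 1 CPM in at least 2. Exposure comparisons carried 1 surrogate variable (svaseq, sva 3.50.0), those of batch and of the difference of effects carried sex, and that of sex carried pattern by batch. SE is the log2 fold change over the root of F. log2 CPM used a prior count of 2. Alternatives were DESeq2 1.42.0, limma 3.58.1 voom with litter as a random effect, counts summed per litter, other normalization, filters, covariates and samples, and each litter left out. The scripts were tested on simulated data. Named genes are the 7, the 3 most alike to each, and for other GABA lists at most the 4 called with the smallest p. The 7 genes and all lists were chosen with earlier results of these data known. Promoters are from RefSeq (GRCr8), no genome was used, and the authors' own comparisons were not used. Some genes of these lists are counted but not reported here by name.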

Additional observations from a re-analysis of the deposited data

Results flagged for a closer look

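In 28 groups of 4 to 10 animals (7 genes in 4 groups), 3 single animals stood apart from their group by Dixon's test at 95%, where chance alone gives about 1 in 20 groups. The lowest CRMP1+CRMP2 animal for Gabra3 was at 25.2 RPKM, with the next of the 8 at 31.1. It is the animal that was also lowest for Gabra5 and Gabra4 in its group. The lowest STIP1+NSE animal for Gabra5 was at 45.1 RPKM, with the next of the 8 at 56.2. The highest CRMP1+GDA animal for Gabrb1 was at 11.4 RPKM, with the next of the 6 at 6.42.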

How the results depend on the processing

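In all 8 comparisons DESeq2, median-ratio scaling and halved counts left the number of the 7 genes called within 1.5 times the main number. In the CRMP1+CRMP2 comparison 2 of the 7 and 1445 of all genes were called. The number was 1 with no expression filter (1225 of all genes), 1 without the libraries over 1 CPM of Tph1 or Hoxb7 (611) and 1 with batch and sex as covariates (491). With batch 2 only (127), litter as a random effect (8), counts summed per litter (0) and regional marker scores (34) it was 0. It ran from 0 to 3 with single litters left out (41 to 2889 of all genes) and was 0 without the animal lowest in Gabra5 (205). For batch in controls 6 of the 7 and 5218 of all genes were called. The number was 3 with litter as a random effect (2813 of all genes), 2 with counts summed per litter (1968) and 2 with regional marker scores (1837). In LDHA/B+CRMP1+STIP1 animals it was 2 (5178), and with single litters left out 4 to 6 (3916 to 5252). The causes of these changes were not tested. In the other 6 comparisons 0 genes were called by every setting tried.

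The 3 alternatives chosen after seeing the data were the LDHA/B+CRMP1+STIP1 animals for batch, RPKM with TMM-scaled library sizes, and leaving out CRMP1+CRMP2 replicate 3. Of the values of single genes under settings other than left-out litters, 476 kept sign and call, 24 lost the call and 46 changed sign, of which 1 was called, Gabra2 for batch with regional scores. The log2 fold changes that changed sign were these. With LDHA/B+CRMP1+STIP1 animals in place of controls, Gabra5 had -0.052 (batch in controls). With batch 1 only, Gabra2 had 0.037 (LDHA/B+CRMP1+STIP1) and Gabrb1 0.046 (LDHA/B+CRMP1+STIP1). With batch 2 only, Gabra2 had 0.049 (CRMP1+GDA), 0.0060 (STIP1+NSE), Gabra3 0.0093 (LDHA/B+CRMP1+STIP1), Gabra4 0.018 (CRMP1+GDA), Gabrb2 -0.0025 (LDHA/B+CRMP1+STIP1) and Gabrg1 0.039 (CRMP1+GDA). With batch and sex as covariates, Gabra2 had 0.028 (CRMP1+GDA), 0.00053 (STIP1+NSE) and Gabrg1 0.019 (CRMP1+GDA). With counts summed per litter, Gabra2 had 0.00063 (all exposed animals), 0.0027 (CRMP1+CRMP2), 0.068 (CRMP1+GDA), 0.052 (STIP1+NSE), Gabrb1 0.020 (all exposed animals), 0.065 (CRMP1+CRMP2), 0.0091 (CRMP1+GDA), 0.070 (STIP1+NSE), -0.0045 (sex) and Gabrg1 0.037 (CRMP1+GDA). With litter as a random effect, Gabra2 had 0.0018 (STIP1+NSE) and Gabrb1 0.021 (STIP1+NSE). With regional marker scores, Gabra2 had 0.064 (all exposed animals), 0.013 (CRMP1+CRMP2), 0.059 (LDHA/B+CRMP1+STIP1), 0.082 (STIP1+NSE), -0.73 (batch in controls), -0.0049 (sex), Gabra3 0.00029 (all exposed animals), -0.010 (the difference of effects between batches), Gabra4 0.0024 (all exposed animals), 0.051 (LDHA/B+CRMP1+STIP1), 0.013 (STIP1+NSE), -0.026 (sex), Gabrb1 0.043 (all exposed animals), 0.031 (CRMP1+CRMP2), 0.038 (LDHA/B+CRMP1+STIP1), 0.062 (STIP1+NSE), -1.17 (batch in controls), -0.054 (sex) and Gabrg1 0.0019 (all exposed animals), 0.036 (LDHA/B+CRMP1+STIP1). Without the libraries over 1 CPM of Tph1 or Hoxb7, Gabra3 had 0.016 (LDHA/B+CRMP1+STIP1) and Gabrb1 0.089 (CRMP1+CRMP2).

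With single litters left out, 16 gene values changed sign in at least 1 fit. Gabra2 ran from -0.051 to 0.026 for all exposed animals, from -0.16 to 0.0070 for CRMP1+CRMP2, from -0.067 to 0.013 for LDHA/B+CRMP1+STIP1, from -0.21 to 0.057 for CRMP1+GDA, from -0.091 to 0.049 for STIP1+NSE. Gabra3 ran from -0.050 to 0.0020 for all exposed animals, from -0.036 to 0.00039 for LDHA/B+CRMP1+STIP1, from -0.048 to 0.060 for STIP1+NSE, from -0.029 to 0.10 for the difference of effects between batches. Gabra4 ran from -0.11 to 0.064 for batch in controls. Gabrb1 ran from -0.078 to 0.026 for all exposed animals, from -0.21 to 0.077 for CRMP1+CRMP2, from -0.12 to 0.0074 for LDHA/B+CRMP1+STIP1, from -0.12 to 0.037 for STIP1+NSE, from -0.030 to 0.059 for sex. Gabrb2 ran from -0.021 to 0.024 for STIP1+NSE. Gabra5 was below 0 in every such fit of the 5 exposure comparisons. No paired analysis was possible because replicate numbers were given in accession order and pair no samples across groups. Males and females were compared within litter, with litter as a fixed block, and 0 of the 7 genes were called (Gabrg1 0.17 ± 0.07, SE, adjusted p = 0.563).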
